A study of Mus musculus with 4 samples.

Results

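The genes described here encode the nuclear parts of the mitochondrial respiratory chain, the protein complexes I to IV, and of the ATP synthase, complex V. They were chosen by name: genes whose single symbol in the platform annotation starts with Nduf, Uqcr or Atp5, with Sdh followed by a to d alone, or with Cox followed by 4 to 8. The rule found 84 of the 12393 genes with a single symbol on the array. Of these, 39 belonged to complex I, 4 to complex II, 8 to complex III, 16 to complex IV and 17 to complex V. Where a gene had several probe sets, the one with the highest mean log2 intensity stands for it. Genes with a mean below the limit on weak signal (log2 5.40, percentile 40 of all probe sets) were not tested, which left 81 of the 84 among 8031 genes tested.

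Affymetrix arrays were used on hair follicle stem cells sorted by flow cytometry from mouse back skin, in a comparison of Tbx1 conditional knockout cells (cKO) with wild-type cells (WT). Each genotype has 2 arrays, one in set 1 and one in set 2. All 4 samples came from female mice of mixed CD1/C57BL/6 background at about postnatal day 60, and all were sorted on YFP, integrin α6 and CD34. The protocol given for every sample includes wax depilation of the mid-back 48 h before the skin was taken, and the sample descriptions call the set 1 cells quiescent and the set 2 cells activated. Because these statements were not reconciled by the labels, the sets are named by number. The Cre driver, the allele, the genotype of the control beyond WT, and how many mice went into a sample were not stated in the labels. The p-values therefore cover the spread among these 4 samples alone, part of which may be technical. That spread is not the gene's own alone, because limma draws each gene's variance toward a value shared by all genes fitted. With 2 arrays against 2, an exact permutation test of a single gene cannot give a p below 0.333.

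In the respiratory chain, electrons from NADH enter at complex I and electrons from succinate at complex II. They pass over coenzyme Q to complex III and over cytochrome c to complex IV, which reduces oxygen, while complexes I, III and IV pump protons that drive ATP synthesis by complex V. Some complex IV subunits exist as separate genes for heart and muscle, testis or most other tissues. The balance between glycolysis and respiration has been linked to the shift of hair follicle stem cells between rest and growth. Genes encoded by the mitochondrial genome, and 9 symbols, some of pseudogenes, found only on probe sets shared with another symbol, among them Ndufs6, Ndufa11 and Ndufb4, were not analysed here.

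The targeted gene and the marker genes were read first. Tbx1 had log2 intensities of 9.54 in cKO set 1, 10.53 in WT set 1, 8.88 in cKO set 2 and 10.37 in WT set 2. It was lower on the cKO array of each set, with a mean difference of -1.24 and an adjusted p of 0.310 in limma over all probe sets with a single symbol. All 10 bulge markers on the array were above the limit on weak signal on every array. Of 9 skeletal muscle markers 6 to 8 were below it on each array, as were 4 of 5 fat markers. So were 4 of 6 fibroblast, 3 to 4 of 5 immune and 2 to 3 of 4 melanocyte markers. With no overlap, the tested fibroblast markers, Col1a2 and Dcn, were lower in cKO, and the immune ones, Cd74 and Csf1r, higher. The melanocyte ones, Dct and Pmel, were higher in set 2. None of these was called, and Cd74 in WT set 2 and Pmel in cKO set 1 were below the limit. Endothelial markers had a summed intensity of 109 and 116 on the cKO arrays and 792 and 688 on the WT arrays. All 7 on the array were below the limit on both cKO arrays, against 3 in WT set 1 and 4 in WT set 2. The 2 tested ones, Selp and Plvap, passed the limit through their WT arrays alone. Both were called lower in cKO, but these calls do not compare measured levels. Whether the endothelial difference or those of the other markers have a part in any value below was not tested. In sorted bulk samples, fewer cells of a type and less RNA per cell cannot be told apart.

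Regulatory sequence was examined because the members are transcribed from many chromosomes and the rule used none of it. NRF1 and the ETS factor GABP are known activators of respiratory chain genes. RefSeq promoter windows (assembly GRCm38.p6) of the 250 bases before a gene's start were at hand for 70 of the 84 members, 75 windows in all. The 10-letter NRF1 motif with 1 base left free, read on both strands, stood in 12 of the 75 windows (16%) and in 3.74% of all 32851 windows. The ETS-type letters CCGGAAG stood in 13 (17.3%), against 6.91% of all. At least 1 of these motifs was in 22 windows (29.3%), against 10.1%. Of 8 motif forms searched, these 2 were chosen after their shares had been seen. Among the others, the NRF1 motif with no free base stood in 5.33% against 0.782%, CGGAAG in 37.3% against 13.6% and ATGGCGG in 8% against 2.21%. GGGCGGG was in 29.3% against 23.4%, CCAAT in 38.7% against 33.8%, and TATAAA in 9.33% against 12.4%. The windows compared were not limited to genes on the array or to genes tested, and no set of genes of like intensity was compared. Both motifs can overlap each other, a gene can have several windows, and a match to these letters is a description, not a binding site.

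The windows of 3 members are shown, Cox6a1 and Atp5g2 as members with high intensity and Cox7a1 as a muscle isoform whose probe set was below the limit. They are printed 5′ to 3′ on the gene's strand and end at the base before the start, with motif matches in capitals. Cox6a1 lies on the minus strand (chr5:115348959-115349208), Atp5g2 on the minus strand (chr15:102671048-102671297) and Cox7a1 on the plus strand (chr7:30183921-30184170).
Cox6a1: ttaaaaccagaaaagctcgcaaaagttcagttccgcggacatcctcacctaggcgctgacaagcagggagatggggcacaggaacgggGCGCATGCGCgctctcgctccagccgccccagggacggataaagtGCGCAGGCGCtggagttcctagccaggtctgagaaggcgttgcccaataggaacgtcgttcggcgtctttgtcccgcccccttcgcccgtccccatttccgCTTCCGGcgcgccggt
Atp5g2: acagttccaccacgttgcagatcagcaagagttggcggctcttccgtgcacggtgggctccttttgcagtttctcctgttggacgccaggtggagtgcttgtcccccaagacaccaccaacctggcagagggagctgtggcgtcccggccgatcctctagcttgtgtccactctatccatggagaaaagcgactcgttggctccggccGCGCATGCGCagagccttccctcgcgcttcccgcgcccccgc
Cox7a1: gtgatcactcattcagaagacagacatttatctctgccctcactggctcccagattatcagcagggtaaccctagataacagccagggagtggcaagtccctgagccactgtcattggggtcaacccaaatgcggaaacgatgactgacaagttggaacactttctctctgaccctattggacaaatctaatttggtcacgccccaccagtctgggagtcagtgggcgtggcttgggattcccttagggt
The Cox6a1 window held 2 NRF1-type matches, starting 162 and 117 bases before the gene's start, and 1 ETS-type match starting 16 bases before it. The Atp5g2 window held 1 NRF1-type match, 42 bases before the start. The Cox7a1 window had 0 matches to either motif. Of the 70 members with a window, 21 had a match to at least 1 of the motifs. Cox6a1 and Atp5g2 are among these 21, and Cox6a1 is 1 of 3 members with both motifs. The mean of Atp5g2, 12.18, lies below the complex V median of 12.33. Atp5g3, the complex V member of highest intensity, was not among the 21. Whether a match goes with intensity was not tested, and these 3 windows do not show it.

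The members were among the strongly hybridising genes. Over the 81 tested members the mean log2 intensity ran from 5.52 to 13.73 with a median of 11.7, against a median of 8.33 over all genes tested, and 68 of them had a mean of at least 10. Intensity depends on the probes as well as on the transcript, so levels of different genes are not ranked as amounts of RNA. The highest and the lowest member of each complex were read on every array. In complex I the highest was Ndufb11, an accessory subunit, at 12.93 in cKO set 1, 12.66 in WT set 1, 12.84 in cKO set 2 and 12.68 in WT set 2. The lowest was Ndufb1, also accessory, at 6.92, 7.23, 7.23 and 7.14 in that order. For Ndufb11 both cKO arrays lay above both WT arrays, while for Ndufb1 the genotypes overlapped.

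**Figure D1:**
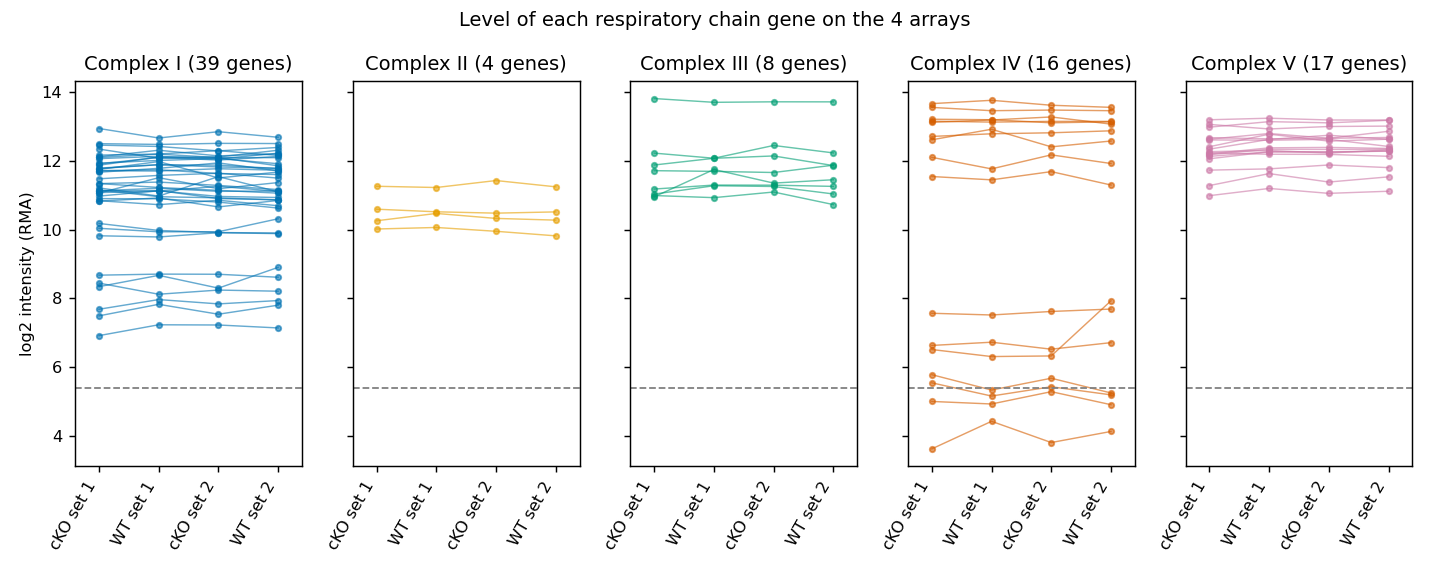
Log2 intensity (y axis, RMA) of all 84 respiratory chain genes on each of the 4 arrays (x axis), 1 panel per complex, with a line joining the 4 values of a gene and a dashed line at the limit on weak signal (5.40). Most lines run nearly flat between 10 and 14, the 3 untested complex IV genes lie at or near the dashed line or below it, and the complex IV line that rises on the WT set 2 array is Cox7c.

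Complex II, succinate dehydrogenase, had Sdhb, the iron-sulfur subunit, as the highest member, at 11.26 in cKO set 1, 11.22 in WT set 1, 11.42 in cKO set 2 and 11.24 in WT set 2. Its lowest was Sdhc, a membrane anchor, at 10.02, 10.06, 9.95 and 9.82. The spread of all 4 members over the arrays was narrow. In complex III, Uqcrb had 13.80, 13.69, 13.71 and 13.71 as the highest member, and Uqcrfs1, the Rieske iron-sulfur protein, had 10.99, 10.93, 11.09 and 10.72 as the lowest. In complex V, Atp5g3, one of 3 genes for the proton-carrying c-ring, was highest at 13.19, 13.23, 13.18 and 13.18. Atp5md was lowest at 10.98, 11.19, 11.05 and 11.11. None of these 8 genes of complexes I, II, III and V had a range of 1.5-fold or more over the 4 arrays.

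The flattest members over the 4 arrays were Cox6b1 (range 0.026 on the log2 scale) and Ndufa1 (0.031). The median range of a tested member was 0.208, against 0.465 over all genes tested and 0.398 over the 1549 tested genes with a mean of at least 10, a comparison set chosen after the values were seen. One member, Cox7c, had a range of 2-fold or more, a share of 1.23% of members against 10.2% of all genes tested and 5.81% of the genes of high intensity. These are shares of genes, which are not replicates.

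Between genotypes, no member was called. At limma's adjusted p threshold of 0.05, 0 of 81 members passed, while 7 of all 8031 genes did (0.0872%). With the set number as a replicate block, 83 of all genes (1.03%) and again 0 members were called. At an unadjusted p below 0.05 there were 2 members, Ndufaf4 and Cox6a2, against 14.2% of all genes. Cox6a2 is counted there although its WT arrays lay below the limit on weak signal, so its p does not compare measured levels. The median difference, cKO minus WT, was -0.01 on the log2 scale over the members (-0.04 within set 1 and 0.03 within set 2) and 0.03 over all genes tested. Of the members 39 lay above 0 and 42 below. The median absolute difference was 0.08, against 0.20 over all genes tested and 0.18 over the genes of high intensity, and the median standard error of a member's difference was 0.16.

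The intervals show how large a difference these arrays leave room for. For 80 of the 81 members the 95% interval of limma lay within 2-fold in both directions, and for 62 it lay within 1.5-fold. Over all genes tested, 82.7% were within 2-fold and 33.3% within 1.5-fold. Over the genes of high intensity 88.2% were within 2-fold, and the member outside was Cox7c. These intervals are for each gene alone and do not show that the genotypes were alike. A 1.5-fold difference in the same direction in both sets was found in 0 members, against 4.68% of all genes tested.

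**Figure D2:**
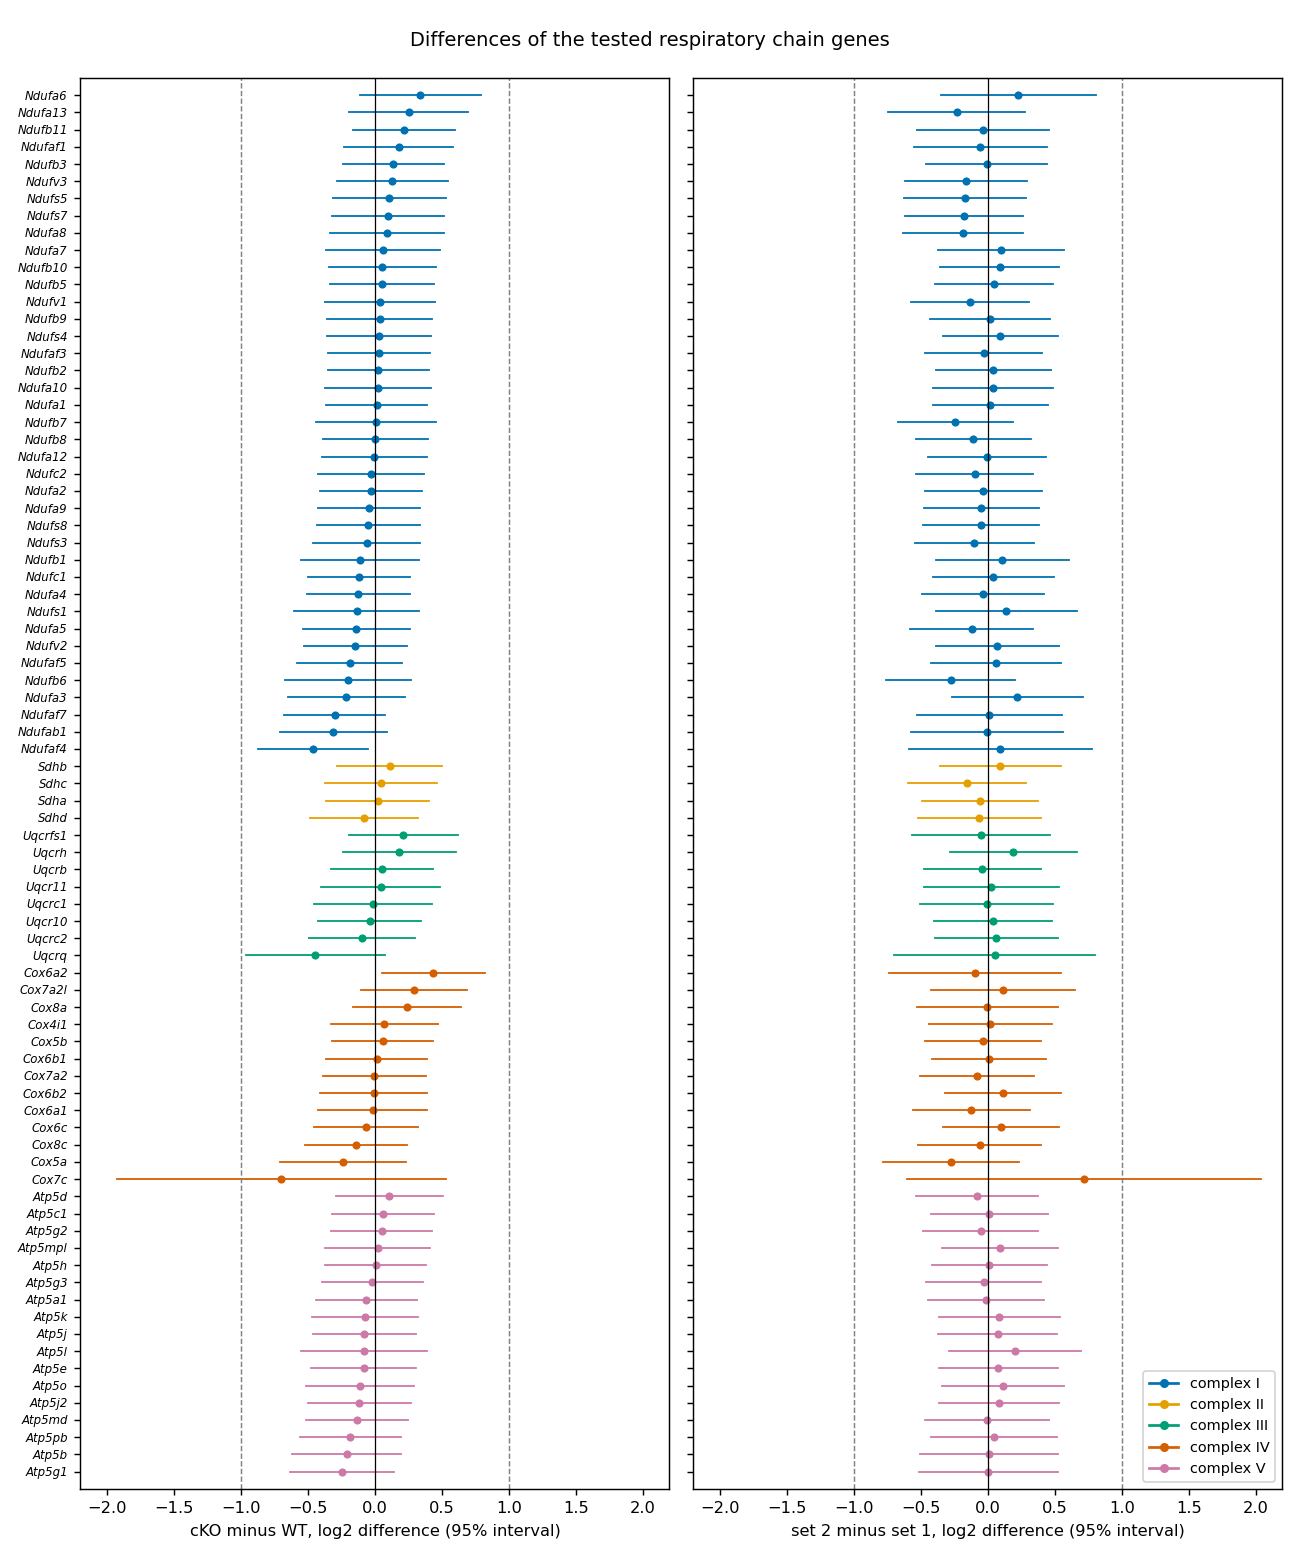
Log2 difference of each of the 81 tested members (dots) with limma's 95% interval (bars), cKO minus WT on the left and set 2 minus set 1 on the right, coloured by complex, with dashed lines at 2-fold. All bars but those of Cox7c lie between the dashed lines, and in the genotype panel the bars of Ndufaf4 and Cox6a2 do not reach 0 although neither gene passed the adjusted threshold, and the WT values of Cox6a2 lie below the limit on weak signal.

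Among the subunits and assembly factors of complex I, the median difference between genotypes was 0.01 (-0.05 within set 1, 0.03 within set 2), and 18 of 39 members lay below 0. Ndufaf4, an assembly factor of complex I, had log2 intensities of 8.34 in cKO set 1, 8.67 in WT set 1, 8.30 in cKO set 2 and 8.90 in WT set 2. Both cKO arrays lay below both WT arrays. The mean difference was -0.47 (SE 0.17, n = 2 arrays per genotype, limma's adjusted p 0.324), and a second probe set of the gene gave -0.35. Ndufa6, an accessory subunit, had 11.21, 10.97, 11.54 and 11.09 in the same order, and here both cKO arrays lay above both WT arrays. Its difference was 0.34 (SE 0.18, limma's adjusted p 0.463).

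The assembly factors and the core subunits were read apart. Of 5 assembly factors, 3 were lower in cKO with no overlap of the genotypes (Ndufaf4, Ndufaf5 and Ndufaf7), with a median difference of -0.19 over the 5. Over all genes tested 19.9% were lower with no overlap. Ndufaf1 went the other way, at 8.44, 8.12, 8.24 and 8.21, with its cKO arrays above its WT arrays. The 6 core subunits, most of which bind the flavin or an iron-sulfur cluster, had a median of -0.05, and 1 of them, Ndufv2, was lower with no overlap. The 28 accessory subunits had a median of 0.02, with 4 higher and 4 lower without overlap. These shares were 14.3% each, against 26.7% higher and 19.9% lower over all genes tested. Ndufab1, the mitochondrial acyl carrier protein, was among the lower ones, at 11.06, 11.50, 11.19 and 11.36, a difference of -0.31, while its further probe set above the limit gave 0.01. Ndufa4 is counted here with complex I by its name, although it is now regarded as a complex IV subunit.

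Over all 81 members 14 were higher in cKO with no overlap of the genotypes (26.7% of all genes tested were) and 19 were lower (19.9% of all genes tested were). The members' shares were 17.3% and 23.5%. Among the genes of high intensity 25% were higher and 26.3% lower. Complex II and complex III had few members. The 4 complex II genes had a median of 0.03 (-0.00 within set 1, 0.09 within set 2), and Sdhb and Sdhd had the largest differences, 0.11 and -0.08. For Sdhd, the second membrane anchor, the arrays read 10.25, 10.47, 10.32 and 10.27, and the genotypes overlapped. Complex III had a median of 0.01 (-0.05 within set 1, 0.13 within set 2), which ran from -0.08 to 0.08 with 1 array left out.

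Uqcrq, a small subunit of complex III, had the largest difference of that complex. It read 10.95 in cKO set 1, 11.74 in WT set 1, 11.35 in cKO set 2 and 11.45 in WT set 2. The cKO arrays lay below the WT arrays, most of all in set 1. The mean difference was -0.45 (SE 0.21, n = 2 arrays per genotype, limma's adjusted p 0.412), made of -0.79 within set 1 and -0.10 within set 2. Without the cKO set 1 array it was -0.25 and without the WT set 1 array -0.30. Uqcrfs1 was higher in cKO by 0.21 with no overlap of the genotypes.

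Complex IV, cytochrome c oxidase, had a median of -0.01 (0.03 within set 1, 0.00 within set 2), with 5 of 13 tested members higher in cKO without overlap (38.5%, against 26.7% of all genes tested, Cox6a2 with its dim WT arrays among them) and 1 lower (7.69%, against 19.9%). The higher ones were 3 after the arrays were centred (23.1%, against 25.8% of all genes). The lower ones were 2 after a second quantile normalisation (15.4%, against 18.7%). Cox7c, a small subunit, read 6.52 in cKO set 1, 6.31 in WT set 1, 6.33 in cKO set 2 and 7.93 in WT set 2. The WT set 2 array alone was high. The difference was 0.20 within set 1 and -1.60 within set 2, with a mean of -0.70 (SE 0.50, limma's adjusted p 0.573). With the WT set 2 array left out it was 0.11. A second, dim probe set of Cox7c was also highest on that array, at 5.48 against 4.14 to 4.57. The WT set 2 array was also the highest in 2 nuclear long non-coding RNAs, Malat1 at 12.35 against 9.80 to 10.56 and Neat1 at 9.08 against 7.46 to 8.51. For Neat1 the gap to the next array was smaller than the spread of the others. What lies behind the values of this array was not tested.

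The complex IV subunits with tissue isoforms were read gene by gene. Cox4i1, the common form, read 13.11, 13.18, 13.27 and 13.06 in cKO set 1, WT set 1, cKO set 2 and WT set 2, while the lung-enriched Cox4i2 was below the limit on average, at 5.55, 5.17, 5.43 and 5.20. Cox6a1, the common form, read 13.65, 13.75, 13.61 and 13.55. The heart and muscle form Cox6a2 read 5.79, 5.34, 5.68 and 5.26, just above the limit on average. It passed the limit through its cKO arrays alone, as both WT values lay below, and the size of its difference is therefore not given. Skeletal muscle markers had summed intensities of 233 and 241 on the cKO arrays and 233 and 220 on the WT arrays, and their part in the Cox6a2 values was not tested.

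Cox6b1, the common form, was nearly the same on every array, at 13.14, 13.12, 13.14 and 13.14. Its testis counterpart Cox6b2 read 7.57, 7.52, 7.62 and 7.69, with the genotypes overlapping. In the Cox7a family, Cox7a2 read 13.20, 13.19, 13.10 and 13.13. Its relative Cox7a2l, known for its place in respiratory supercomplexes, read 12.10, 11.76, 12.17 and 11.92, and both cKO arrays were above both WT arrays. The 2 further Cox7a2l probe sets differed by 0.26 and 0.36, against 0.29 for the chosen one (SE 0.16, limma's adjusted p 0.469). The heart and muscle form Cox7a1 was below the limit on every array, at 3.63, 4.43, 3.82 and 4.14, and was not tested. Cox8a, the common form, read 11.54, 11.44, 11.68 and 11.29, a difference of 0.24, and its second probe set above the limit gave 0.26. Cox8b, of heart and muscle, was below the limit on each array, at 5.01, 4.93, 5.29 and 4.91. Cox8c, of testis, read 6.63, 6.73, 6.53 and 6.72. Of the remaining complex IV subunits with no such isoforms, Cox5a read 12.60, 12.91, 12.40 and 12.57. Within each set the cKO array of Cox5a was the lower one, with differences of -0.31 and -0.17, although the genotypes overlapped. The 2 further probe sets of Cox5a gave -0.26 and -0.19.

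**Figure D3:**
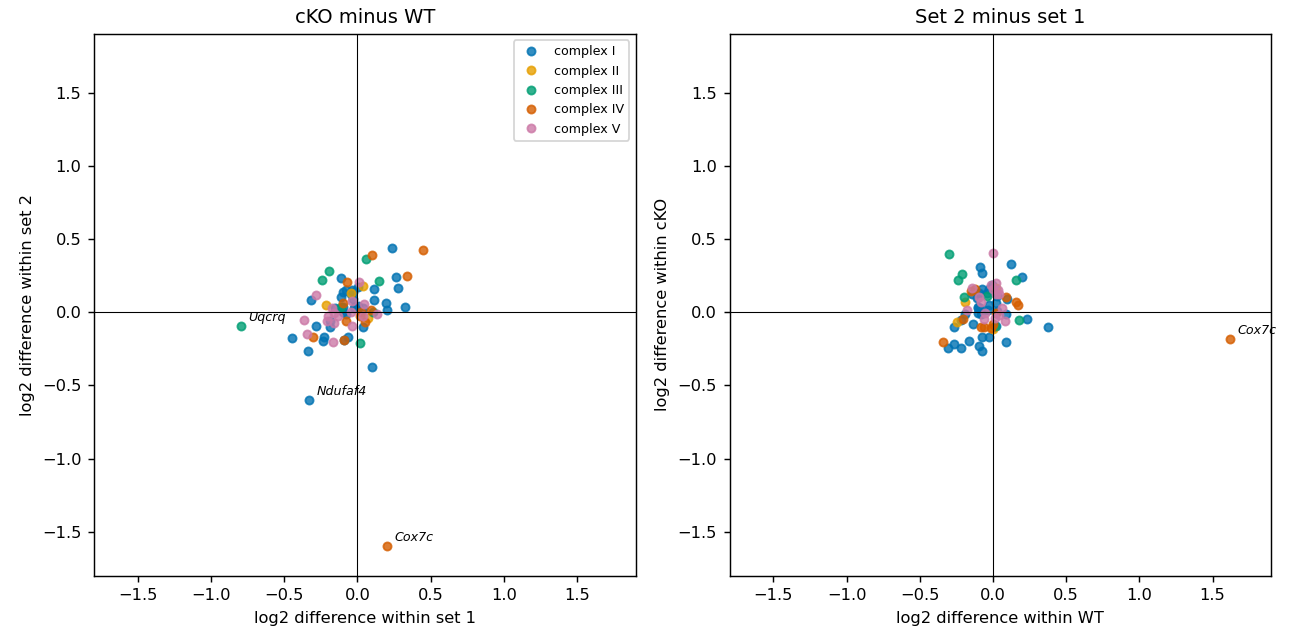
Each tested member is a dot, coloured by complex. On the left, cKO minus WT within set 1 (x axis) is plotted against the same within set 2 (y axis). On the right, set 2 minus set 1 within WT (x axis) is plotted against the same within cKO (y axis). All axes are log2 differences. Nearly all dots gather around 0, and the labelled Cox7c lies apart in both panels because of its WT set 2 value.

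Complex V was the complex whose members lay furthest below 0 between genotypes, a feature chosen after the values were seen. Of its 17 members 12 were below 0 and the median was -0.08 (-0.16 within set 1 and -0.02 within set 2). In all, 9 were lower in cKO with no overlap of the genotypes, or 52.9% against 19.9% of all genes tested and 26.3% of the genes of high intensity, and 1 was higher. None was called by limma, and the lowest adjusted p was 0.526. After a second quantile normalisation of the arrays, 8 of the 17 were lower with no overlap (47.1%, against 18.7% of all genes). No test of the group was made, and the members share the arrays. The 9 further probe sets of complex V genes above the limit had a median of -0.12, and 7 were below 0.

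The genes named by the largest differences in complex V were Atp5g1, a second c-ring gene, and Atp5b, the catalytic β subunit. Atp5g1 read 11.28 in cKO set 1, 11.62 in WT set 1, 11.38 in cKO set 2 and 11.53 in WT set 2, and both cKO arrays lay below both WT arrays. Its difference was -0.25 (SE 0.16, limma's adjusted p 0.526). Atp5b read 12.40, 12.77, 12.57 and 12.62, and also did not overlap between genotypes, with a difference of -0.21 (SE 0.16, limma's adjusted p 0.609). Atp5c1, the γ subunit, did not share this order, at 13.05, 12.92, 12.99 and 13.00. By part of the enzyme, the median was -0.06 over the 5 genes of the F1 part, Atp5a1, Atp5b, Atp5c1, Atp5d and Atp5e. It was -0.02 over 3 c-ring genes and -0.08 over the 9 other complex V genes.

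The cKO set 1 array was the lowest of the 4 for 11 of the 17 complex V genes, and without it the median was -0.01. That array also had the widest gap between 3′ and 5′ probe sets of the control genes. In log2 intensity the gap was 2.95 for Dap against 1.74 to 1.82 on the other arrays, and 0.68 for Gapdh against 0.24 to 0.34. The part of this array's RNA or labelling quality in the complex V values was not tested. Over all members this array was the lowest for 26 of 81 and the WT set 2 array for 27. Over all genes tested these arrays were the lowest for 1531 and 3180 of 8031.

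**Figure D4:**
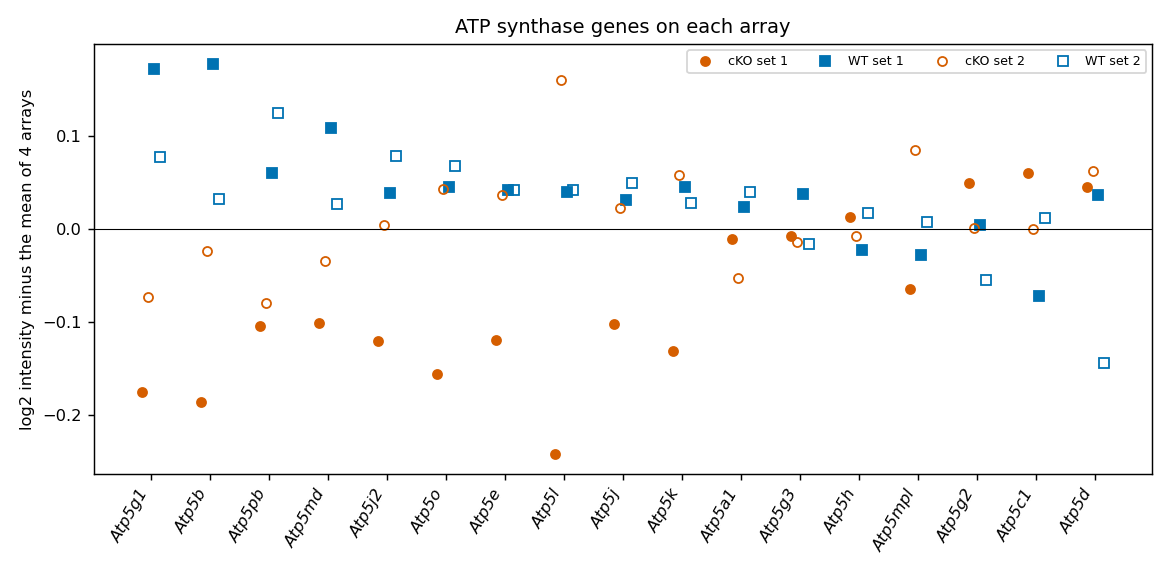
Log2 intensity of each ATP synthase gene on each array minus the gene's mean over the 4 arrays (y axis), genes ordered along the x axis by cKO minus WT, circles for cKO, squares for WT, filled for set 1 and open for set 2. For most genes on the left the cKO set 1 circle lies lowest, and the squares lie above the circles for the 9 genes without overlap.

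Between sets, 0 of 81 members were called by limma (0 also with genotype as a block, where 0.0125% of all genes were), and 0 had an unadjusted p below 0.05, against 0 called (0%) and 2.86% below 0.05 over all 8031 genes tested. The median difference, set 2 minus set 1, was 0.00 (0.03 within cKO and -0.04 within WT) and -0.05 over all genes tested. With 41 above and 40 below 0, the members' median absolute difference was 0.06, against 0.16 over all genes. Limma's 95% interval lay within 2-fold for 80 members and within 1.5-fold for 61, the latter 75.3% against 23.9% of all genes. A 1.5-fold difference in the same direction in both genotypes was found in 0 members, against 1.38% of all genes. In all, 9 members were higher in set 2 with no overlap of the sets (11.1% of all genes were) and 19 were lower (19.5% of all genes were). Centring each array on its median turned the members' median from 0.00 to -0.01. The members higher in set 2 with no overlap were 5 (6.17%) after centring and also after a second quantile normalisation. Over all genes tested these shares were 9.55% and 10.5%. The members lower in set 2 were 21 after centring (25.9%, against 21.9% of all genes) and 18 after the normalisation (22.2%, against 20.1%).

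By complex, the medians of set 2 minus set 1 were -0.01 for complex I, -0.06 for II, 0.03 for III, -0.00 for IV and 0.01 for V. Centring turned the last of these to -0.00, and it was 0.13 without the WT set 1 array. In complex I, 12 of 39 members were lower in set 2 with no overlap of the sets, 4 of the 6 core subunits (Ndufs3, Ndufs7, Ndufs8 and Ndufv1) among them. The share was 30.8%, against 19.5% of all genes tested. The 32 further probe sets of complex I genes had a median of 0.01 with 13 below 0, against -0.01 and 22 of 39 for the chosen ones. Among the core subunits, the second probe set of Ndufs7 gave 0.01, and 4 of the 5 further ones of Ndufs8 lay above 0. The 2 further ones of Ndufv1 lay below 0, at -0.10 and -0.06. Ndufb6, an accessory subunit, read 11.74 in cKO set 1, 11.97 in WT set 1, 11.50 in cKO set 2 and 11.67 in WT set 2. Both set 2 arrays lay below both set 1 arrays, and the difference was -0.28, with a 95% interval from -0.76 to 0.21. Its second probe set gave -0.08, with overlapping sets. Ndufb7 read 11.12, 11.13, 10.90 and 10.86, a difference of -0.24, and again the sets did not overlap. The second probe set of Ndufb7 gave -0.06, with overlapping sets.

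In complex II, the set difference was -0.15 for Sdhc, with no overlap of the sets, and 0.09 for Sdhb. In complex III, Uqcrh, the hinge protein, was higher by 0.19 at 12.22, 12.07, 12.44 and 12.22, with no overlap of the sets, and Uqcrc2, a core protein, read 11.71, 11.69, 11.66 and 11.87. The further probe set of Uqcrc2 was higher in set 2 by 0.24 with no overlap of the sets, against 0.06 for the chosen one. Uqcrq differed in opposite directions in the genotypes, by 0.40 within cKO and by -0.30 within WT. A test of that difference could not be made, because 4 arrays leave no spread once both factors and their product are fitted. In complex IV, Cox7c had a set difference of 0.72 that was -0.08 without the WT set 2 array. Cox5a differed by -0.27, with no overlap of the sets, while its 2 further probe sets gave -0.07 and -0.13. In complex V, Atp5l read 12.33, 12.62, 12.74 and 12.62, and its set 2 values lay above its set 1 values, by 0.40 within cKO and 0.00 within WT. Atp5o, at 12.05, 12.26, 12.25 and 12.28, had overlapping sets.

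Probe sets of a gene did not always differ in the same direction. The 84 members had 156 probe sets, 45 members had several, and 60 further ones in 40 members were above the limit. For 13 of the 60 the sign of cKO minus WT was opposite to that of the chosen probe set, and for 20 the sign of set 2 minus set 1 was. None of them was called. Uqcr10, a complex III subunit, had the only further probe set that differed by 1.5-fold between genotypes, 0.71 on the log2 scale. It read 8.59, 8.45 and 8.62 on the other arrays and 7.34 on the WT set 2 array, while the chosen probe set of Uqcr10 read 11.18, 11.29, 11.29 and 11.25.

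Other genes that feed, build or regulate the chain were taken from 9 lists, written with earlier results of these data known. In these lists 0 of the 103 tested genes were called in either comparison, against 0.0872% of all genes between genotypes and 0% between sets. The largest median between genotypes belonged to the regulators of mitochondrial biogenesis and to mitochondrial import, both at -0.15. Of 18 import genes 16 lay below 0 (88.9%, against 45.7% of all genes tested). Their median was -0.21 within set 1 and -0.09 within set 2. With no overlap of the genotypes, 12 of them were lower in cKO (66.7%, against 19.9%) and 1 was higher (5.56%, against 26.7%). Between sets the import genes were as one-sided in sign, with 16 of 18 below 0 (88.9%, against 59.8% of all genes tested). Their median there was -0.05, as over all genes tested, and 2 were lower in set 2 with no overlap of the sets (11.1%, against 19.5%). No test of the list was made. Timm9, an import chaperone, read 6.66, 7.10, 6.81 and 7.41, a difference of -0.52. Of the 14 regulators 10 lay below 0 and 4 above, or 71.4% below against 45.7% of all genes tested. Nrf1 differed by -0.44, made up mostly of a high WT set 2 value (7.62 against 6.66 to 6.91). Polg2 and Esrra went the other way, by 0.39 and 0.38, and Tfam, the packaging factor of mitochondrial DNA, differed by -0.30.

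Genes of coenzyme Q and heme synthesis had the widest range between genotypes. Coq8a, needed for coenzyme Q synthesis, read 8.07 in cKO set 1, 7.29 in WT set 1, 8.01 in cKO set 2 and 7.13 in WT set 2, a difference of 0.83 with no overlap of the genotypes, but limma's adjusted p was 0.170. Alad, of heme synthesis, read 10.39, 10.99, 10.28 and 10.89, a difference of -0.61 (limma's adjusted p 0.236). Surf1, which helps to assemble complex IV, was higher in cKO by 0.63 (limma's adjusted p 0.221), at 9.71, 9.09, 9.74 and 9.10. The remaining lists had medians between -0.10 and 0.08.

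**Figure D5:**
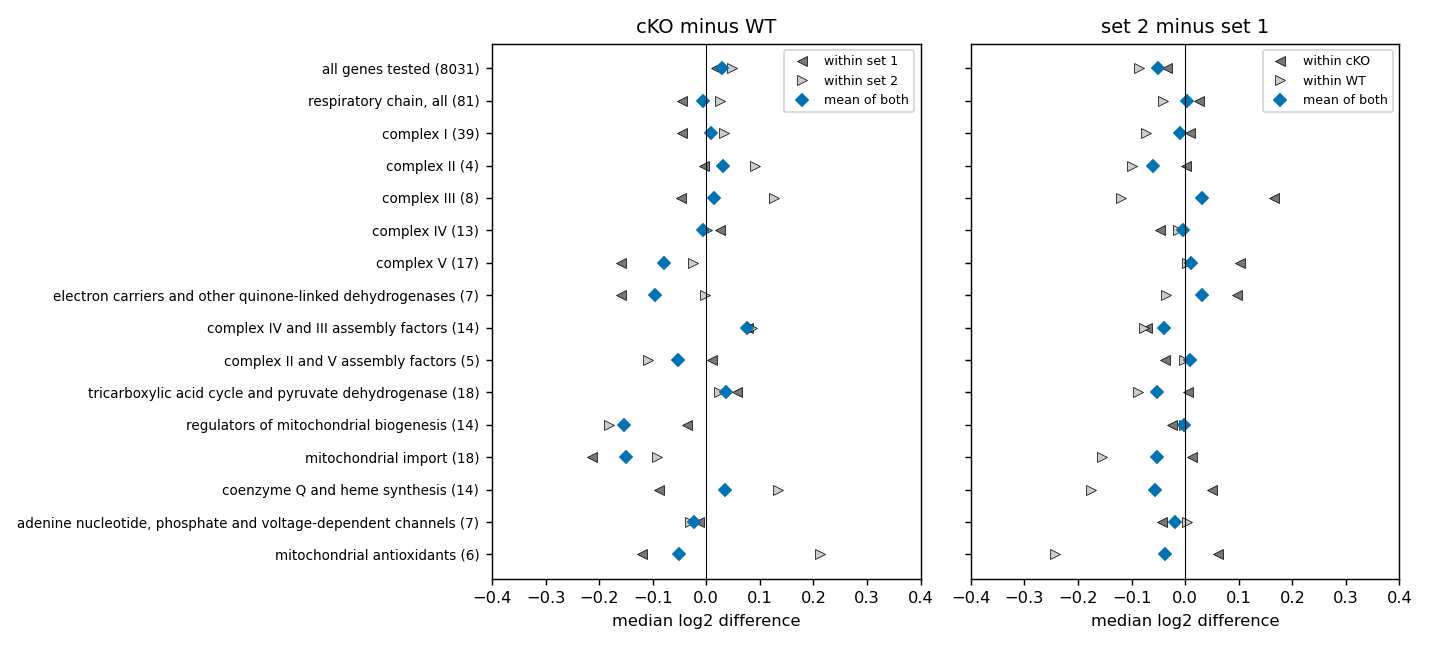
Median log2 difference over the tested genes of each complex and each list (y axis, number of genes in brackets), cKO minus WT on the left and set 2 minus set 1 on the right, with triangles for the value within each set or genotype and diamonds for the median of the mean differences. The diamonds run from -0.15 to 0.08, and the triangles of complex V lie at -0.16 within set 1 and -0.02 within set 2.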

How the data were processed

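Total RNA of the sorted cells (2 µg) was labelled for Affymetrix arrays, per the labels' protocols. For 22690 probe sets the authors deposited intensity on a linear scale. The submitters' processing notes name RMA, without a version. RMA commonly writes log2 values, but the deposited intensities ran from 5.29 to 25561, so log2 was taken of them. RMA gives no detection call, and strong signals near the scanner's ceiling were not tested for saturation, which could narrow differences of strong genes. The 4 arrays are few, which limits precision.

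Symbols came from the platform annotation, and 20380 probe sets with 1 symbol were used. Xist and Y-linked genes were left out. Each comparison was fitted with limma 3.58.1 (R 4.3.3, lmFit and eBayes, no covariate) over all 8031 genes, with Benjamini-Hochberg adjustment. The eBayes step moderates each gene's variance with that of all genes (prior degrees of freedom 3.87 between genotypes). Standard errors, intervals and p-values are therefore not those of a gene's own arrays alone. Ndufa1 had an SE of 0.153 between genotypes, while its SD was 0.006 in cKO and 0.018 in WT. The script was tested on simulated data. The titles give arrays of both genotypes the same set number, taken as pairing them; the same-numbered arrays' deviations from group means had r = 0.192 over genes, so a fit blocked on the set was also run.

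Members and lists were chosen with earlier results of these data known. Values on every array are given for the highest and lowest member of a complex, the 2 largest differences per complex and comparison, the complex IV isoforms, and members called or differing 1.5-fold in both pairs. Ndufaf1, Ndufab1, Ndufa1, Atp5c1 and the Uqcr10 probe set were added after their values were seen. For genes not called, a change of sign within 1 SD counts as no move.

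Alternatives were no limit on weak signal, a limit at percentile 60, averaged probe sets, a second quantile normalisation, centring, a variance trend with robust fitting, each array left out, and the block.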

Additional observations from a re-analysis of the deposited data

Results flagged for a closer look

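Uqcrq, a complex III subunit, differed in opposite directions between sets in the 2 genotypes. Set 2 minus set 1 was 0.397 on the log2 scale within cKO and -0.298 within WT, with 1 array in each cell of the design. The difference was not tested, since 4 arrays leave no spread for it. Uqcrq was listed because both differences were at least 1.2-fold, a size chosen after the values were seen.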

How the results depend on the processing

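Under every alternative run, 0 members were called in either comparison. Both tests rest on 2 arrays per group, so a count of 0 says little about small differences. With the set number as a replicate block, the members' median cKO minus WT was -0.00667 and 0 members were called, while calls over all genes went from 7 to 83. The block thus changed no member's call. With genotype as a block, the median of set 2 minus set 1 was 0.00337, with 1 call over all genes. Between genotypes, calls over all genes were 28 with a variance trend, 0 with the limit at percentile 60, 16 without cKO replicate 2 and 2 without WT replicate 2. The members' median stayed between -0.0454 and 0.0136 with 1 array left out for cKO minus WT, and between -0.0235 and 0.0435 for set 2 minus set 1, so its sign depended on the array. The lowest adjusted p of a member over all settings was 0.0906, for Cox7c without WT replicate 1. With 1 array left out, the medians between genotypes of complexes I (-0.045 to 0.036), II (-0.030 to 0.060) and III (-0.079 to 0.077) changed sign, as did those between sets of complexes I (-0.064 to 0.015), III (-0.020 to 0.103), IV (-0.052 to 0.021) and V (-0.0025 to 0.127). Complex IV between genotypes, -0.01 with all arrays, was 0.02 with either one of the WT arrays left out. Between sets, complex IV was -0.05 without cKO replicate 2 or WT replicate 1, and complex II was -0.16 with averaged probe sets. Of 1894 values of single members under the alternatives, 98 moved by more than the spread between arrays.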
